A study of Rattus norvegicus with 18 samples.

Results

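The clustered microRNAs (miRNAs) rno-miR-182, rno-miR-96-5p and rno-miR-183-5p were followed together with rno-miR-33-5p across 18 small RNA libraries of rat liver. They were taken by row name, 4 rows of the 401 mature miRNAs in the deposited count table. The libraries form 3 groups of 6: lean rats, obese ZDF rats that received vehicle, and obese ZDF rats that received colesevelam, each 8 weeks old. The labels give the strain of every group, the lean one included, as ZDF-Leprfa/Crl, a line in which obesity and diabetes come from a defective leptin receptor. The allele that keeps the lean rats lean, and the dose and duration of colesevelam, were not given in the sources used here. Colesevelam is a resin that holds bile acids in the gut, so that more cholesterol goes into bile acid synthesis in the liver. The stated purpose was to find liver miRNAs that differ between vehicle and colesevelam. The labels do not tie each library to an animal of its own, so the p-values measure the spread between libraries, part of which may be technical. In the sample descriptions 10 of the 18 libraries share a 4-digit number with another library of their group, leaving 4 numbers in lean, 5 in vehicle and 4 in colesevelam; what the number stands for is not stated, so n = 6 counts libraries and may exceed the number of animals.

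As background, the 3 cluster miRNAs are cut from hairpins that lie close together and are thought to come from one primary transcript. In liver cells with little sterol, the transcription factor SREBP-2 turns on genes of cholesterol synthesis and uptake, and the cluster is among its reported targets. miR-182 and miR-96 are reported to lower Fbxw7 and Insig2, proteins that restrain SREBP activity. miR-33 is carried in an intron of the SREBP-2 gene Srebf2 and lowers the cholesterol exporter Abca1.

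The mature sequences are shown because the seed is the stretch that pairs with a target, and its letters show how alike the members are. They are written 5′ to 3′ with the seed, bases 2 to 8, in capitals, and come from RefSeq, where all 4 members were found and had the same letters as the deposited table.
miR-182: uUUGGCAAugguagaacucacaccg
miR-96-5p: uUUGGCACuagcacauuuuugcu
miR-183-5p: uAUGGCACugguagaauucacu
miR-33-5p: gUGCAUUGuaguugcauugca
Counted from the 5′ end, the seeds of miR-182 and miR-96-5p differ by A8C, those of miR-183-5p and miR-96-5p by A2U, and those of miR-182 and miR-183-5p by U2A and A8C. Over bases 2 to 7, miR-182 and miR-96-5p shared a seed with each other and with no other row of the table. The miR-33-5p seed had 1 position of 7 in common with those of miR-182 and miR-96-5p and 0 with that of miR-183-5p. Across their full aligned length, without gaps, miR-182 and miR-183-5p had the same base at 18 of 22 positions, against 12 of 23 for miR-182 and miR-96-5p.

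In the deposited table the cluster lies on the minus strand of chromosome 4, in a build that was not given in the sources used here. miR-182 is at 57221577 to 57221601, miR-96-5p at 57225227 to 57225249 and miR-183-5p at 57225432 to 57225453, a span of 3877 bases. miR-33-5p is at 123415308 to 123415328 on the plus strand of chromosome 7. In RefSeq's GRCr8 assembly it lies at chr7:115593957-115593977, inside Srebf2 (chr7:115542774-115600945). The RefSeq gene Mir3553 lies on the strand opposite Mir183, and the reverse complement of miR-3553 holds all 22 bases of miR-183-5p. The labels do not say whether counting used the strand, so reads of these 2 could not be told apart if it did not.

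The libraries held 32936 to 881452 miRNA counts. The lean libraries were the deeper ones, at 110352 to 881452, against 37910 to 147313 with vehicle and 32936 to 122881 with colesevelam, so depth moves with every comparison to lean. Of the 401 rows, 112 had enough counts to be tested, among them miR-182 and miR-183-5p but not miR-96-5p or miR-33-5p. Levels are given as CPM, the counts in every 1000000 of a library, with the library total scaled by TMM, a scaling that takes most miRNAs to be equal between libraries. They are therefore relative levels: a miRNA is set against the rest of its library. The hepatocyte markers miR-122-5p, miR-192-5p and miR-194-5p together had a median share of 297994 CPM of the unscaled total in the lean group, 248634 with vehicle and 264282 with colesevelam, so liver's defining miRNAs were abundant throughout.

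miR-182 was the abundant member, and it was lowest with vehicle and highest with colesevelam. Lean libraries held from 3435 to 6448 CPM of miR-182 (median 4485, mean 4582 ± 1020 SD, n = 6), from 521 to 4906 counts each. Vehicle libraries held 1952 to 3466 CPM of miR-182 (median 2285, mean 2486 ± 594 SD, n = 6), from 85 to 375 counts each. Colesevelam libraries held 10517 to 14184 CPM of miR-182 (median 13217, mean 12792 ± 1318 SD, n = 6), from 393 to 1200 counts each. On this scale all 6 colesevelam libraries lay above the other 12, while the highest vehicle library lay just above the lowest lean one. In rank among the 401 rows, miR-182 stood at 22 to 29 in the lean libraries, 29 to 38 with vehicle and 14 to 20 with colesevelam.

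miR-183-5p had the same order of groups at a level far below that of miR-182. It held 66.1 to 145 CPM in lean (median 94.1, mean 96.4 ± 31.7 SD, n = 6), 41.5 to 79.7 CPM in vehicle (median 51.1, mean 55.2 ± 13.2 SD, n = 6) and 198 to 379 CPM in colesevelam libraries (median 354, mean 332 ± 69.2 SD, n = 6). The counts behind these levels of miR-183-5p were 12 to 110, 2 to 8 and 7 to 33 per library. Lean and vehicle libraries overlapped, and all colesevelam libraries lay above both. Colesevelam library 1, with 7 counts, was the low one of its group at 198 CPM, against 331 to 379 CPM in the other 5. The filter on low counts asked for about 126 CPM of the unscaled library total in 6 libraries. On that unscaled measure miR-183-5p reached the level in the 6 colesevelam libraries and in 0 of the other groups. Lean library 2, at 145 CPM after TMM scaling, lay below it before scaling. miR-183-5p was tested only because it was high with colesevelam, whereas miR-182 reached that level in all 18 libraries.

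**Figure D1:**
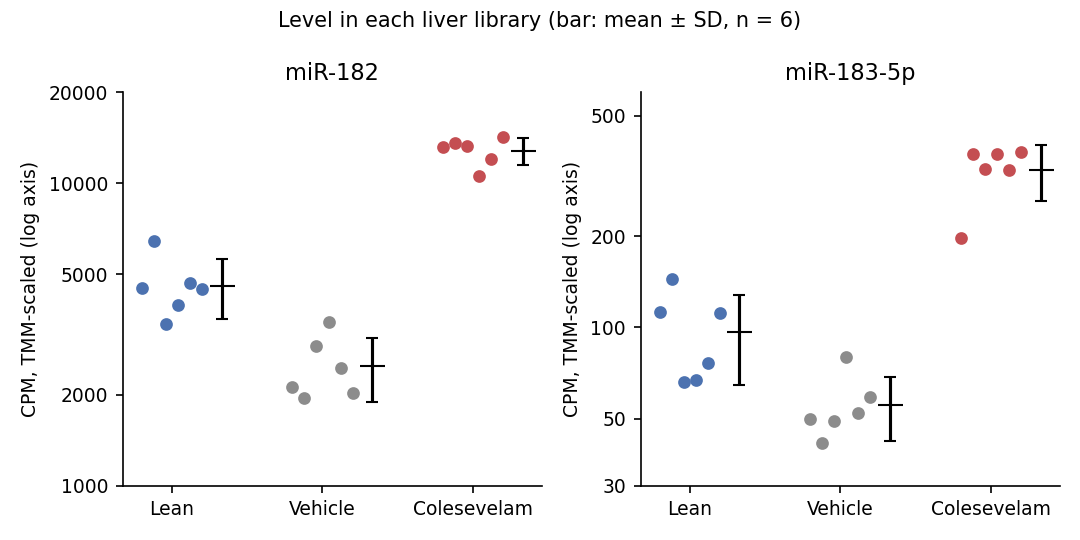
Level of miR-182 (left) and miR-183-5p (right) in each library, in TMM-scaled CPM on a log axis; each point is 1 library and the bar is the mean ± SD of 6. On this scale all colesevelam points lie above the rest, from 10517 CPM up for miR-182 and from 198 CPM up for miR-183-5p. Divided by the authors' size factors instead, the colesevelam counts overlap those of both other groups. So scaled, miR-182 runs up to 395 with vehicle and from 303 with colesevelam, and miR-183-5p up to 8.42 and from 6.42.

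Colesevelam against vehicle asked which miRNAs the resin changed in obese rats, and both tested members rose. miR-182 rose 5.15-fold (95% interval 3.90 to 6.80), which is 2.36 ± 0.19 (SE) in log2 units (edgeR adjusted p = 3.01e-09). miR-183-5p rose 5.95-fold (3.90 to 9.08), or 2.57 ± 0.29 in log2 units (edgeR adjusted p = 6.84e-07), and was at 2.52 (edgeR adjusted p = 4.93e-07) with no filter on low counts. Of the 112 miRNAs tested, 10.7% were called and 7.14% were called higher, and for 3.57% the lowest colesevelam library stood above the highest vehicle one. miR-182 had the smallest p-value of the 112, and among called miRNAs only miR-183-5p changed by more. With libraries that share a number in their descriptions summed into 1, miR-182 was at 2.49 (edgeR adjusted p = 1.42e-07) and miR-183-5p at 2.57 (edgeR adjusted p = 2.58e-05).

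A comparison with the other miRNAs in the same library needs no scaling factor. With colesevelam the log2 ratio of miR-182 to another tested miRNA was higher than with vehicle for 110 of the 111 others, and for 96 of them the 2 groups did not overlap. The exception was miR-183-5p. The median of these changes was 2.40. For miR-183-5p the ratio was higher against all 111 others, without overlap for 93, and the median change was 2.42. miR-183-5p was among the tested miRNAs only because it was high with colesevelam, so its ratios are no separate support for its rise. These ratios were taken with 0.5 added to each count, which weighs most where counts are few, as for miR-183-5p with vehicle. Measured as a share of all miRNA counts, miR-182 held 0.198% to 0.314% of a vehicle library (median 0.247%) and 0.977% to 1.42% of a colesevelam library (median 1.30%), with no overlap, as for 3.57% of the 112. The shares differed by 2.27 on the log2 scale, or 4.84-fold (exact two-sided permutation p = 0.00216, the smallest the 924 splits can give, and BH-adjusted p = 0.00325 over 9 such tests). With libraries that share a number summed, the difference was 2.36 (exact permutation, adjusted p = 0.0179). In the authors' deposited table, log2 fold changes with colesevelam were 2.00 for miR-182 (adjusted p = 0.000538) and 2.25 for miR-183-5p (adjusted p = 0.00116).

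**Figure D2:**
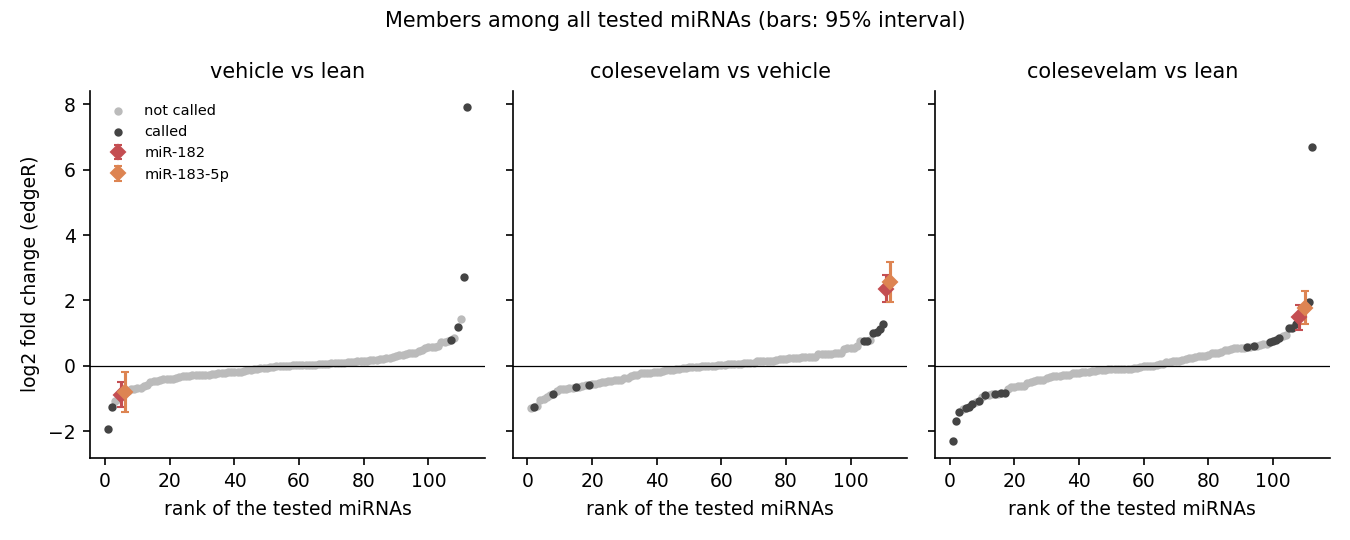
Log2 fold changes of the 112 tested miRNAs in rank order for each comparison, dark where called by edgeR and light where not, with miR-182 and miR-183-5p as diamonds and their 95% intervals as bars. The 2 members sit at the top with colesevelam against vehicle (2.36 and 2.57) and below 0 in vehicle against lean (−0.88 and −0.80).

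In vehicle against lean, which asked what differs in the obese liver, miR-182 fell and miR-183-5p did not pass the test. miR-182 was lower by 1.85-fold, or −0.88 ± 0.19 in log2 units (edgeR adjusted p = 0.00362), where 6.25% of the 112 miRNAs were called and 2.68% called lower. miR-183-5p was at −0.80 ± 0.30 (edgeR adjusted p = 0.119), with a 95% interval of −1.41 to −0.19. With libraries of one number summed, miR-182 was at −0.96 (edgeR adjusted p = 0.0111). As a share of miRNA counts, miR-182 held 0.362% to 0.557% of a lean library (median 0.457%), above all vehicle libraries. The share differed by −0.83 on the log2 scale (exact permutation p = 0.00216, adjusted p = 0.00325 over 9 tests), and by −0.86 with libraries of one number summed (exact permutation, adjusted p = 0.0179). miR-182 was the 1 row of the 112, or 0.893%, whose share in every vehicle library lay below every lean library. Larger called changes in this comparison were those of miR-200b-3p (−1.94), miR-142-5p (−1.27), miR-140-3p (1.19, but −1.27 with the authors' size factors), miR-21-3p (2.73, but 0.34 and not called with those factors, edgeR adjusted p = 0.556) and miR-6215 (7.92, SE 1.76).

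Against lean, the colesevelam libraries held more of both members relative to other miRNAs, though both had the opposite sign with the authors' size factors, as described next. miR-182 was 2.79-fold higher (95% interval 2.13 to 3.65), at 1.48 ± 0.19 (edgeR adjusted p = 7.29e-06), and miR-183-5p 3.42-fold higher (2.41 to 4.85), at 1.77 ± 0.24 (edgeR adjusted p = 1.44e-05). Since miR-183-5p passed the filter only through the colesevelam libraries, its fit with no filter is given too, at 1.71 (edgeR adjusted p = 8.17e-05). Of the 112 miRNAs, 21.4% were called and 11.6% were called higher, and 5.36% did not overlap and were higher. The ratio of miR-182 was higher against 107 of the 111 other tested miRNAs, without overlap for 58. Its share rose by 1.45 on the log2 scale (exact permutation p = 0.00216, adjusted p = 0.00325 over 9 tests). Called changes larger than that of miR-182 were those of miR-183-5p, miR-423-5p (−2.31), miR-200b-3p (−1.68), miR-21-3p (1.95, but −0.92 with the authors' size factors) and miR-6215 (6.70, SE 1.73).

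The sign of the comparison with lean turned on how libraries were scaled. The authors' deposited table places miR-182 below lean with colesevelam, at a log2 fold change of −1.38 (adjusted p = 0.0132), and miR-183-5p at −1.08 (adjusted p = 0.0755). For vehicle against lean, the authors' deposited table gives −3.38 for miR-182 (adjusted p = 1.52e-06) and −3.31 for miR-183-5p, with no p-value. The size factors recovered from that table span 0.752 to 1.46, a range of 1.94-fold, while the library totals span 26.8-fold, so most of the difference in depth was not divided out of those values. In the authors' deposited table the median row is at −2.87 for colesevelam against lean and at −2.41 for vehicle against lean. Relative to that median row, the authors' deposited values are 1.495 for miR-182 and 1.80 for miR-183-5p with colesevelam, and −0.97 and −0.90 with vehicle. Whether less miRNA was in the obese livers or less of it reached the libraries cannot be told apart here. Nor can fewer cells that make a miRNA and less of it per cell in bulk liver.

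**Figure D3:**
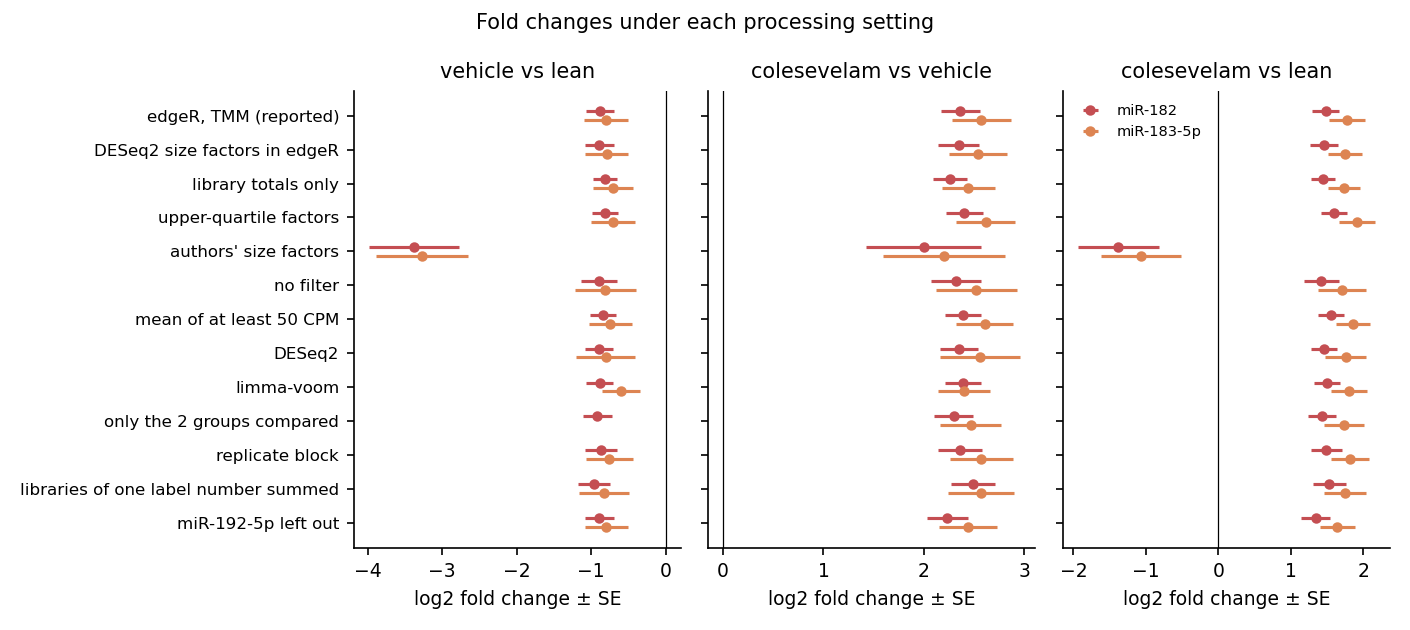
Log2 fold changes (points) ± SE (bars) of miR-182 and miR-183-5p under each processing setting, 1 panel per comparison with its own axis. Colesevelam against vehicle stays above 0 in every setting shown, from 2.00 to 2.49 for miR-182, while colesevelam against lean drops below 0 with the authors' size factors, to −1.38 for miR-182.

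The balance between the 2 cluster members was compared within each library. The libraries held 28.1 to 66.7 counts of miR-182 for each count of miR-183-5p, with group medians of 48.3 in lean, 45.2 in vehicle and 36.9 in colesevelam. The log2 ratio of miR-183-5p to miR-182 was −5.57 ± 0.27 (SD, n = 6) in lean, −5.27 ± 0.22 with vehicle and −5.25 ± 0.39 with colesevelam, and the groups overlapped. It was taken with 0.5 added to each count, which lifts it most where miR-183-5p counts are few, 2 to 8 per vehicle library. The differences below therefore hold a part due to the added count. With nothing added, the summed counts of miR-182 for each of miR-183-5p were 47.5 in lean, 44.3 in vehicle and 38.1 in colesevelam. With colesevelam against vehicle the log2 ratio differed by 0.016 (exact permutation p = 0.933, adjusted p = 0.933). The shifts that this test did not reject ran from −0.39 to 0.39. With 0.5 added, a change in balance of up to 1.31-fold upward or to 0.763 of the vehicle ratio was thus compatible with the counts. The difference from lean was 0.30 with vehicle (exact permutation p = 0.0606, adjusted p = 0.0779) and 0.32 with colesevelam (exact permutation p = 0.128, adjusted p = 0.144). These 2 depended on settings: the first passed with 1 count added in place of 0.5 (0.45, adjusted p = 0.0223), without lean 1 (0.36, adjusted p = 0.0473) and without vehicle 3 (0.36, adjusted p = 0.0445). The second passed without colesevelam 1 (0.46, adjusted p = 0.0195).

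**Figure D4:**
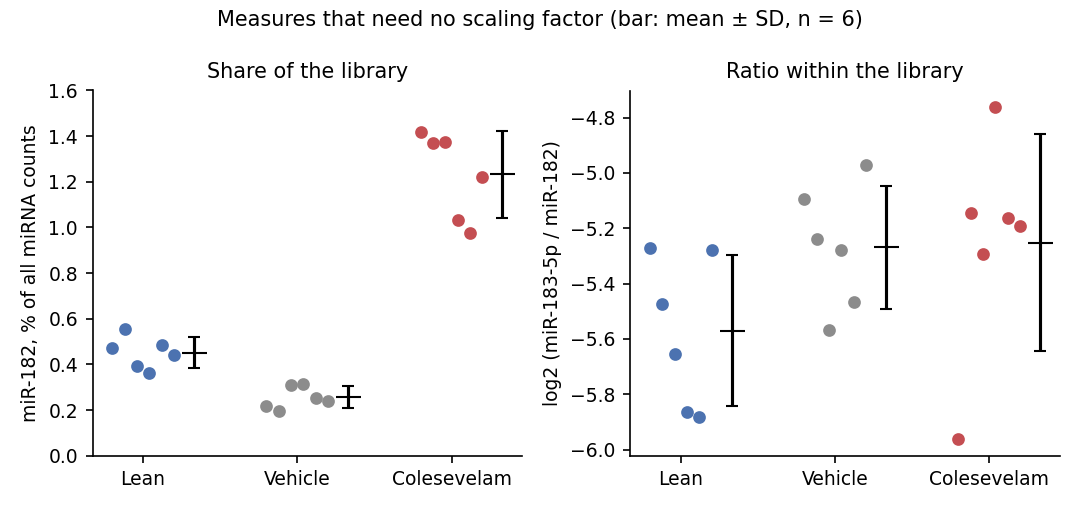
Measures taken within a library: miR-182 as a percentage of all miRNA counts (left) and the log2 ratio of miR-183-5p to miR-182 with 0.5 count added to each (right); points are libraries and bars the mean ± SD of 6. The shares of the 3 groups do not overlap (medians 0.457%, 0.247% and 1.30%), whereas the ratios do.

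rno-miR-96-5p, the cluster member between the other two, was close to the detection limit. The 6 lean libraries held 0 to 9 counts of it and 16 in all, and 4 of them had at least 1. Vehicle 3 and vehicle 5 held 1 count each and colesevelam 5 held 2, and the other obese libraries had none. As CPM of the summed, unscaled totals, this was 8.11 in lean (exact 95% Poisson interval 4.64 to 13.2), 5.01 in vehicle (0.607 to 18.1) and 5.03 in colesevelam (0.609 to 18.2). At the lean level, 3.24 counts would stand in the vehicle and 3.23 in the colesevelam libraries. The ratio of colesevelam to vehicle was 1.00 with an interval of 0.0727 to 13.8, so a change of the size seen in miR-182 was not detectable at this depth. Had miR-96-5p kept its lean proportion to miR-182, the colesevelam libraries would hold 8.14 counts; relative to miR-182 its observed level was 0.246 of that in lean (0.0274 to 1.04). These intervals stand for counting error alone, since reads that carry no molecular identifier need not be separate molecules.

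miR-33-5p, the Srebf2-hosted member, was rare as well, and no change in it was detectable between the groups. Lean libraries held 1, 11, 3, 5, 0 and 11 counts in order of their label numbers. Vehicle 3 held 1 and vehicle 4 held 2, colesevelam 1 and colesevelam 5 held 1 each, and the other obese libraries had none. The summed level was 15.7 CPM in lean (10.7 to 22.3), 7.52 in vehicle (1.55 to 21.97) and 5.03 in colesevelam (0.609 to 18.2). The ratio to lean was 0.478 for vehicle (0.0936 to 1.53) and 0.320 for colesevelam (0.0371 to 1.26), and that of colesevelam to vehicle was 0.669 (0.0559 to 5.84), so every interval held 1. Lean library 6 stood apart at 64.9 CPM, against 0 to 14.5 CPM in the other 5, and without it the ratio of colesevelam to lean was 0.453 (0.0513 to 1.86). Set against miR-182 counts, miR-33-5p with colesevelam was at 0.127 of its lean proportion (0.0147 to 0.498), and at 0.181 (0.0205 to 0.743) without lean 6. Both intervals relative to miR-182 lay below 1, so the colesevelam counts, 2 in all, did not keep their lean proportion to miR-182, as far as counting error goes. The same measure held 1 in the other comparisons, at 0.142 for colesevelam against vehicle (0.0119 to 1.24) and 0.890 for vehicle against lean (0.174 to 2.85). With colesevelam against lean, 107 of the 111 other tested miRNAs were also lower relative to miR-182, so this was not particular to miR-33-5p.

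The opposite arms of 2 of these hairpins were also counted. The RefSeq hairpins show where both arms lie, with the counted arms in capitals, the 5p arm first.
Mir183: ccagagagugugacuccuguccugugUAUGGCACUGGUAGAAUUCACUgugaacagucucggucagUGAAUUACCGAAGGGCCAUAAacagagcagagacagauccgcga
Mir33: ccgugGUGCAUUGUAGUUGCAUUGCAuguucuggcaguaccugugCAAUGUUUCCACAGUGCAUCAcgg
In GRCr8 these lie at chr4:59756044-59756153 (minus strand) and chr7:115593952-115594020 (plus strand). The 3p arm made up 3 of the 348 counts of the Mir183 hairpin, or 0.862% (exact 95% interval 0.178% to 2.50%), and 12 of the 48 counts of the Mir33 hairpin, or 25% (13.6% to 39.6%). All 12 miR-33-3p counts were in lean libraries, 6 in lean 2, 5 in lean 6 and 1 in lean 4. At the lean level 2.43 would stand in the vehicle and 2.42 in the colesevelam libraries, and a count of 0 there allowed up to 3 counts, or 7.52 and 7.54 CPM (the plotted exact 95% Poisson limits 9.24 and 9.28), above the 6.08 CPM of lean, so no difference was detectable.

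**Figure D5:**
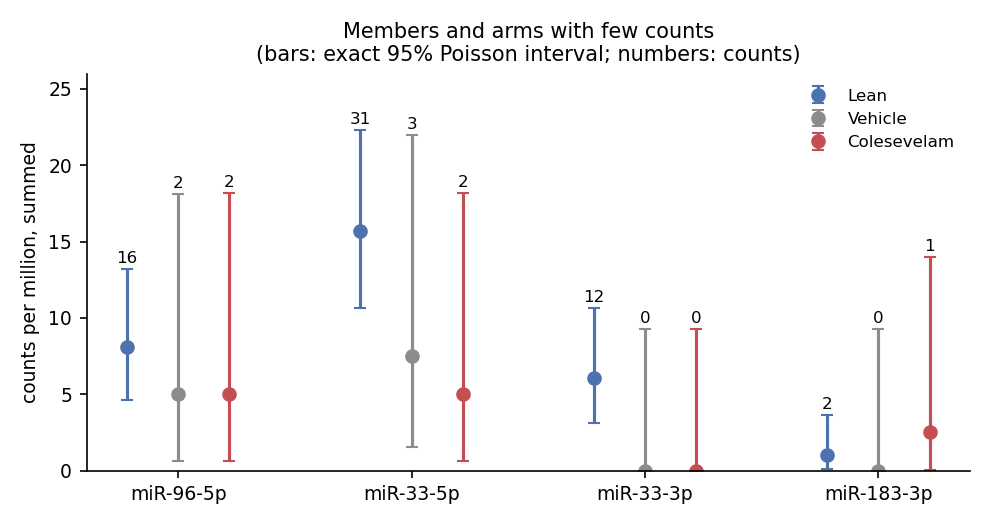
Summed level of the rows with few counts, in CPM of the group's summed total, with exact 95% Poisson intervals as bars and the number of counts above each. The intervals of all 3 groups overlap for every row, and those of the obese groups are wide because they rest on 0 to 3 counts.

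The tested miRNA with the profile most like that of miR-182 over the 18 libraries was miR-183-5p. Since miR-183-5p was tested only because it was high with colesevelam, as miR-182 was, this likeness is no separate support for their shared rise. Likeness was the root mean square difference of log2 CPM after each miRNA was centred on its own mean, 0.31 for this pair against a median of 1.14 over the 111 other miRNAs. Next came miR-146a-5p at 0.67, miR-146b-5p and miR-99a-5p, both at 0.70, and then miR-10a-5p at 0.72. For miR-183-5p the same miRNAs followed miR-182, at 0.75 for miR-99a-5p, 0.76 for miR-146a-5p, 0.79 for miR-146b-5p and 0.80 for miR-10a-5p. Their differences between groups were smaller: miR-146a-5p, for example, lay 0.35 and 0.43 below its mean in lean and vehicle libraries and 0.78 above it with colesevelam, against 0.21 and 1.09 below and 1.30 above for miR-182.

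Other miRNAs linked to cholesterol handling were called by edgeR at about the rate of all miRNAs. The list held 19 miRNAs besides the members, of which 18 were in the table and 10 could be tested. With colesevelam against vehicle, edgeR, DESeq2 and limma-voom each called 0 of the 10, beside 12, 13 and 10 of all 112. At the 10.7% called by edgeR over all 112, about 1 of 10 would be. An unadjusted edgeR p under 0.05 was found for 1 of the 10, beside 24 of all 112. The list's median log2 fold change was 0.059, beside −0.0088 over all 112. The hepatocyte miRNA miR-122-5p was at 0.35 ± 0.32, miR-148a-3p, which targets the LDL receptor, at 0.15 ± 0.29, miR-27b-3p at −0.11 ± 0.19 and miR-30c-5p, which targets the lipoprotein assembly factor Mttp, at −0.50 ± 0.20. Against lean, miR-378a-3p rose with vehicle (0.80 ± 0.21, edgeR adjusted p = 0.0199) and with colesevelam (0.74 ± 0.21, edgeR adjusted p = 0.0153), and miR-30c-5p fell with colesevelam (−0.91 ± 0.20, edgeR adjusted p = 0.00200). With the authors' size factors miR-378a-3p had the opposite sign against lean, −1.64 with vehicle and −2.02 with colesevelam. For vehicle against lean edgeR, DESeq2 and limma-voom each called 1 of the 10, beside 7 (6.25%), 8 and 6 of all 112. There 3 of the 10 had an unadjusted edgeR p under 0.05, beside 21 of all 112. The list's median was −0.28, beside 0.0051 over all 112. For colesevelam against lean edgeR and limma-voom called 2 of the 10 and DESeq2 called 4. Of all 112, edgeR called 24 (21.4%), limma-voom 21 and DESeq2 33. An unadjusted edgeR p under 0.05 was found for 6 of the 10, beside 44 of all 112. The list's median was −0.093, beside −0.078 over all 112. miR-185-5p, miR-223-3p and miR-128-3p, with 21, 119 and 223 counts over all libraries, were not tested.

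Markers of other cells were read beside these results, in CPM of the unscaled library total. The 5 markers of bile duct and other epithelium, 1 of them tested, summed to 397 to 630 in lean, 76.2 to 253 with vehicle and 147 to 243 with colesevelam, so they were lower in both obese groups and overlapped between these. The 4 leukocyte markers summed to 1660 to 3245 in lean, 940 to 1817 with vehicle and 771 to 1237 with colesevelam. The islet and neuronal list, with 4 of 5 members in the table, summed to 344 to 1713, 235 to 1118 and 425 to 815. The 4 stromal markers (36330 to 44306, 35610 to 52331 and 32145 to 50602), the 2 endothelial ones (6142 to 12188, 4062 to 8132 and 4968 to 10197) and the 2 erythroid ones in the table (164 to 461, 97.8 to 305 and 48.9 to 301) overlapped between all groups. No listed marker that was in the table was at 0 over all libraries. Of the tested markers only miR-150-5p was called with colesevelam against vehicle (−1.27 ± 0.38, edgeR adjusted p = 0.0340). With the authors' size factors miR-150-5p was not called there (−1.58, edgeR adjusted p = 0.201). The leukocyte marker miR-142-5p, tested as well, was at 0.090 ± 0.37 in the same comparison (edgeR adjusted p = 0.936). Against lean, miR-200b-3p, the tested epithelial marker, fell with vehicle (−1.94) and with colesevelam (−1.68), as did the leukocyte miR-142-5p (−1.27 and −1.18). The other tested leukocyte marker, miR-150-5p, was at −0.00025 with vehicle and fell with colesevelam (−1.27, edgeR adjusted p = 0.0179). The tested islet marker miR-375-3p was at −1.07 in both, called with colesevelam (edgeR adjusted p = 0.0433) and not with vehicle (edgeR adjusted p = 0.110). The part of these cells and of library depth in the changes of miR-182 and miR-183-5p was not tested.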

How the data were processed

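Per the file headers, the deposited table gives estimated counts per mature miRNA for 18 libraries, unscaled, and the authors' DESeq2 log2 fold changes with raw and adjusted p-values. The submitters' processing notes name Bowtie 1.1.2 and DESeq2 1.18.1; trimming, genome build, annotation and counting tool were not given in the sources used here. Of the 7218 counts, 297 were not whole (0 of them in the members) and were rounded. Per the labels' protocols, total RNA went into a TruSeq RNA kit; how small RNA was selected is not stated.

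Groups came from the sample titles. filterByExpr (minimum count 10, minimum total 15) kept 112 of 401 rows, which were scaled by TMM and tested by edgeR 4.0.16 (R 4.3.3; robust quasi-likelihood F test, one fit over all libraries, BH adjustment over 112 rows, threshold 0.05). The test was tried on simulated counts first. Shares and ratios were compared by exact two-sided permutation. Counting intervals are exact, at 95%. The authors' size factors were solved from their mean scaled counts.

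Members and lists were chosen with earlier results of these data known. Named miRNAs are the members, their other arms, the 5 nearest profiles, called changes larger than that of miR-182, fixed names and called miRNAs of the cholesterol list, and markers. Alternatives covered scaling, filter, tool (DESeq2 1.42.0, limma 3.58.1), block, libraries that share a description number summed, and each library left out.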

Additional observations from a re-analysis of the deposited data

Results flagged for a closer look

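Values were set apart where the gap between 1 library and the rest of its group passed Dixon's 95% limit for 6 libraries (0.625). This held in 8 of the 18 groups of values that could be checked, where chance flags about 1 in 20; nearly all rest on a handful of counts. miR-183-5p in colesevelam 1 was at 198 CPM, against 331 to 379 in the other 5, on 7 counts. miR-33-5p in lean 6 was at 64.9 CPM, against 0 to 14.5 in the rest, on 11 counts, and the opposite arm miR-33-3p stood apart in the same library at 29.5 CPM, against 0 to 7.89, on 5 counts. miR-33-5p in colesevelam 1, at 28.2 CPM, rests on 1 count. miR-96-5p stood apart in vehicle 3 at 24.6 CPM, from 1 count, and in colesevelam 5 at 20.1 CPM, from 2 counts. miR-183-3p did so in lean 5 at 6.35 CPM and in colesevelam 5 at 10.03 CPM, from 1 count each.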

How the results depend on the processing

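Depth limited the miRNAs with few counts: 3 counts, the limit used for a count of 0, are 91.1 CPM in the shallowest library. miR-182 and miR-183-5p stayed called as risen with colesevelam against vehicle in every fit that gave an adjusted p. They were at 2.33 to 2.52 and 2.54 to 2.70 whichever library was left out. DESeq2 gave no adjusted p for miR-183-5p. The highest adjusted p came with the authors' size factors, at 2.00 ± 0.57 and 2.20 ± 0.61 (edgeR adjusted p = 0.0372 for both). With the authors' size factors, colesevelam against lean turned to −1.38 (miR-182, edgeR adjusted p = 0.0161) and −1.07 (miR-183-5p, edgeR adjusted p = 0.0547), miR-183-5p in vehicle against lean was called at −3.27, and the median miRNA lay at −2.76 against lean with colesevelam, −2.38 with vehicle and −0.36 between the obese groups. That setting called 110 miRNAs in vehicle against lean (1 higher; 4 of 7 with TMM), 2 in colesevelam against vehicle (both higher; 8 of 12 with TMM) and 109 in colesevelam against lean (1 higher; 13 of 24 with TMM). For colesevelam against vehicle, 6 were called with upper-quartile factors (all higher), 14 with library totals (7 higher), and 7 each with no filter, a replicate block and libraries of one label number summed; leaving out a vehicle or colesevelam library gave 7 to 12, the lowest without vehicle 6, and leaving out a lean one 11 to 14. Library totals gave 29 calls (11 higher) against lean with colesevelam and put the median of all miRNAs at −0.14 there (−0.078 with TMM) and −0.12 between the obese groups (−0.0088 with TMM). The log2 ratio of miR-183-5p to miR-182 was 0.45 with 1 count added in vehicle against lean, which passed (exact permutation, adjusted p = 0.0223). Between the obese groups the log2 ratio was −0.13 with 1 count added and −0.11 with summed libraries, and neither passed. With a library left out this ratio ran from 0.24 to 0.36 (vehicle against lean), −0.082 to 0.16 (colesevelam against vehicle) and 0.22 to 0.46 (colesevelam against lean). In the fit of 2 groups, miR-183-5p was not tested in vehicle against lean. Sample numbers did not pair the libraries: of 18 same-numbered pairs 6 correlated above 0.1 (−0.60 to 0.55). With the replicate block miR-182 was at −0.87, 2.37 and 1.49 in the order above and kept its 3 calls. The miR-33-5p ratio without lean 6 was added after its count was seen.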
